A study of Mus musculus with 6 samples.

Results

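Cell cycle and DNA replication genes were examined in livers that lack Pdss2 in hepatocytes, as a reading of how much liver cells were dividing. Of 41 such genes, 40 were read by at least 1 probe set carrying that gene symbol and no other, which gave 91 probe sets of the 45101 on the array. A probe set is a group of short oligonucleotides against 1 transcript. Every such probe set was kept, with no filter on low values: 8 for 4 regulators of the G1 phase, 38 for 14 genes of DNA replication and 45 for 22 genes of mitosis. The mitotic cyclin Ccnb1 was the member not analysed here.

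Total RNA came from flash-frozen livers of 3 B6.Alb/cre,Pdss2loxP/loxP mutants, aged 176, 178 and 224 days (mutants 1 to 3), and 3 B6.Pdss2loxP/loxP controls, aged 209, 213 and 140 days (controls 1 to 3). Both groups carried Pdss2 alleles flanked by loxP sites. The mutants also carried cre recombinase under the albumin promoter, which was used to target hepatocytes. Whether the other cells of their livers kept the gene was not tested. All mice were male and untreated, the genotypes were caged apart, food was withdrawn 3 hours before death, and each liver was hybridized to its own Affymetrix array. Control 1 is described as the concurrent control of the animal of mutant 3. Pdss2 encodes a subunit of the enzyme that makes the isoprenoid side chain of CoQ, the electron carrier of the mitochondrial respiratory chain.

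Hepatocytes of an adult liver are mostly quiescent and re-enter the cycle after injury or loss of tissue. A cell leaving quiescence first makes D and E type cyclins, which drive the phosphorylation of the retinoblastoma proteins and free the E2F factors. E2F then turns on the helicase, polymerase and nucleotide genes needed to copy DNA. Genes of mitosis come on later, in G2, when the B-Myb and FOXM1 factors join the MuvB complex at their promoters. MuvB binds the cell cycle homology region, a short element that often lies near a CCAAT box, the site of NF-Y. Polyploid hepatocytes, common in mice, can copy DNA without completing division, so replication and mitosis were described apart.

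Few of the cell cycle genes passed the test. At an adjusted p below 0.05 in limma, 2 of the 91 probe sets rose in mutants and 0 fell, with 16 higher and 4 lower at an unadjusted p under 0.05. Among all 45037 probe sets other than spiked-in controls, 561 (1.25%) were called higher and 336 (0.746%) lower by the same adjusted p, and at an unadjusted p under 0.05 the shares were 15.7% higher and 9.54% lower. All differences are mutant minus control in log2 units and follow the labels of the samples. Oxidative phosphorylation genes, read to check the direction, had a median difference of -0.89 over 47 probe sets. The study describes energy metabolism genes as raised in mutant livers, the opposite direction, and the cause was not tested. Of the 2 cell cycle probe sets that rose, 1 read Ckap2, which encodes a protein of spindle microtubules, with a rise of 3.14 (standard error 0.27, n = 3 mice per group). The other read Prim2, the large subunit of DNA primase, with a rise of 1.50 (standard error 0.28, n = 3 per group). Mki67, the gene of the proliferation antigen Ki-67, was higher by 0.60, with an adjusted p of 0.10 from limma, and Pcna, the polymerase clamp, was lower by 1.03, with an adjusted p of 0.13. The probe sets of mitosis had a median difference of 0.33 and those of replication one of 0.15, beside a median of 0.17 over all probe sets.

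On the brightest of the 3 probe sets of Pdss2 the values were 6.94, 6.88 and 7.05 in mutants and 7.46, 7.47 and 7.56 in controls, a difference of -0.54 with an adjusted p of 0.12 from limma. The other probe sets of Pdss2 differed by 0.40 and 0.35, and no source used here says which exons the 3 probe sets read. The study describes a substantial knock-down of this gene in livers of the mutant genotype, measured by quantitative PCR. Why the probe sets did not show a like fall was not tested. Actb, a cytoskeletal actin, differed by 0.06 and 0.25 on its probe sets. Every mutant lay above every control on 21.2% of all probe sets and below every control on 10.7%. An exact two-sided permutation test of 3 mice against 3 cannot go below p = 0.1, the value that such a complete separation gives, and precision is limited by the number of arrays.

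The median array value was 6.12, 6.24 and 6.19 in mutants and 5.92, 6.03 and 6.12 in controls, and centring each array on its median moved the median difference of all probe sets to 0.01. The medians of the 3 groups of cell cycle genes are therefore also given relative to the median of all probe sets, since a difference smaller than this shift changes sign with it. On that footing mitosis stood at 0.15, G1 regulators at 0.08 and replication at -0.02. With quantile normalization the corresponding values were 0.12, 0.13 and -0.07. The shift itself differed with signal level. Over the 22520 probe sets at or above the median level of 6.11, the median difference was 0.086. Of the 45 mitosis probe sets 35 lay below that level. No background of like level was computed, so the values relative to all probe sets are not matched for level.

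The promoters of these genes hold the letters of the elements named above, and they are shown because replication and mitosis genes differ in them. RefSeq promoters of the GRCm38.p6 build, running from 250 bases before to 50 bases after the start of transcription, were found for 32 of the 40 genes. The CCAAT box was searched as CCAAT, the cell cycle homology region as TTTGAA or TTCGAA, and E2F letters as TTTCCCGC, TTTGGCGC, TTTCGCGC or TTTGCCGC, each on both strands. The 3 kinds of letters share no word, but words of E2F letters on opposite strands can overlap each other. Ckap2 and Kif11 are shown as spindle genes that were high in mutants, Mki67 as the usual proliferation marker, Cdk1 as a mitotic kinase whose groups overlapped, and Mcm6 and Pcna as replication genes, with the letters found in capitals. The promoters are those of Ckap2 (chr8:22185770-22186069 on the minus strand), Kif11 (chr19:37376132-37376431 on the plus strand), Mki67 (chr7:135716330-135716629 on the minus strand), Cdk1 (chr10:69352863-69353162 on the minus strand), Mcm6 (chr1:128359656-128359955 on the minus strand) and Pcna (chr2:132253131-132253430 on the minus strand), each written 5′ to 3′ in the direction of transcription.
Ckap2: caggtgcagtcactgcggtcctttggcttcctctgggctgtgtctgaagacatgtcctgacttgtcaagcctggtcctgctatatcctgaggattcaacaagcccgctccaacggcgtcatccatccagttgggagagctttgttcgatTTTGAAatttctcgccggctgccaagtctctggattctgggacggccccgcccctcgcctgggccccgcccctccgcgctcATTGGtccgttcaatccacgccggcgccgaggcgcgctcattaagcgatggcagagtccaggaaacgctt
Kif11: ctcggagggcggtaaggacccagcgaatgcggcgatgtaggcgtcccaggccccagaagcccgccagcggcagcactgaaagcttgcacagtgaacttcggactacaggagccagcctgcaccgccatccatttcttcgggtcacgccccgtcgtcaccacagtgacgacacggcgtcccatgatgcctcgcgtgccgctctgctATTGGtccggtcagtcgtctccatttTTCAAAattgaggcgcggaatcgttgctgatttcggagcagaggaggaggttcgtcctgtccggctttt
Mki67: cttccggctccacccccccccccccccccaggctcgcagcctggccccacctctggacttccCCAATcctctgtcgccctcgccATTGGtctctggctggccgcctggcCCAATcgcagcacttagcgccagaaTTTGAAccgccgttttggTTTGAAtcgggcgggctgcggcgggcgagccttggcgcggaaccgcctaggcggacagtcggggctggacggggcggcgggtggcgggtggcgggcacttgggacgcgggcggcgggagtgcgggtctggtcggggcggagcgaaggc
Cdk1: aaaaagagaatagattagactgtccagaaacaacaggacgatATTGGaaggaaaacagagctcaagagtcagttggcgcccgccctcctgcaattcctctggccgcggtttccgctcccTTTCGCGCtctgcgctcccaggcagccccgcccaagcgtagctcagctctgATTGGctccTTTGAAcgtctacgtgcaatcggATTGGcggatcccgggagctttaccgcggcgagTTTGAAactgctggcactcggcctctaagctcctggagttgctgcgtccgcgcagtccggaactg
Mcm6: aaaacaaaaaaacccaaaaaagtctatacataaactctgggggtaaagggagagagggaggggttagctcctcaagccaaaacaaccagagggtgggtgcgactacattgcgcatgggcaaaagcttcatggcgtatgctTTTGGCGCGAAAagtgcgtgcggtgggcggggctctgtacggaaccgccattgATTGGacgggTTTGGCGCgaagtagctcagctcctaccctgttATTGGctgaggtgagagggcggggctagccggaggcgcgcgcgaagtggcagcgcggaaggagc
Pcna: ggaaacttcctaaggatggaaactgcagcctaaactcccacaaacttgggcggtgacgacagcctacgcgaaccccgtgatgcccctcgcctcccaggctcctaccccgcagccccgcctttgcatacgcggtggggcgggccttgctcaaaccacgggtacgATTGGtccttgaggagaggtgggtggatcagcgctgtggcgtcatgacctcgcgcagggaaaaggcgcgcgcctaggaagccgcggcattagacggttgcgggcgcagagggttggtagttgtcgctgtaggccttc

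Among mitosis genes, 15 of 18 promoters (83.3%) held both a CCAAT box and the cell cycle homology region, beside 2 of 12 replication promoters (16.7%) and 7.7% of the promoters of all 27025 genes. A CCAAT box was found in 16 of 18 mitosis promoters (88.9%), 10 of 12 replication promoters (83.3%) and 37.9% of all. The cell cycle homology region was found in 15 of 18, 2 of 12 and 19.4%. E2F letters ran the other way, with 5 of 12 replication promoters (41.7%), 1 of 18 mitosis promoters (5.56%, that of Cdk1) and 2.32% of all. In Kif11 the CCAAT box began at position -45 and the cell cycle homology region at -19 from the start, and in Mcm6 E2F letters began at -110, -106 and -47. Pcna held a CCAAT box at -87 and none of the other letters. These matches are descriptions of the sequence and do not show that a factor was bound.

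**Figure D1:**
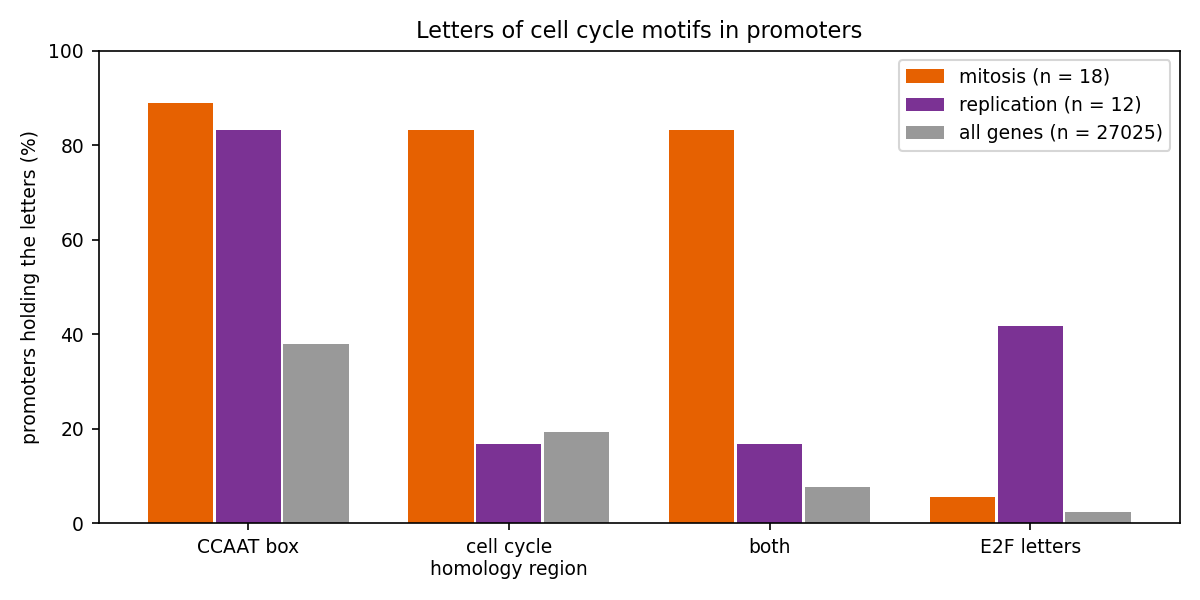
Share of promoters (vertical axis, percent) that hold each set of letters (horizontal axis), for mitosis genes (orange, 18 promoters), replication genes (purple, 12 promoters) and all genes (grey, 27025 promoters). The cell cycle homology region stands at 83.3% in mitosis promoters and 16.7% in replication promoters, and E2F letters at 5.56% and 41.7%.

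The G1 regulators decide whether a resting cell starts the cycle. None of their 8 probe sets passed the adjusted p from limma in either direction. At an unadjusted p under 0.05, 1 was higher (12.5%) and 0 lower, beside 15.7% and 9.54% of all probe sets. On 1 of the 8 (12.5%) every mutant lay above every control, beside 21.2% of all. Ccnd1 encodes cyclin D1, the first cyclin that a hepatocyte makes on leaving quiescence. On its brightest probe set Ccnd1 had 8.40, 7.36 and 7.62 in mutants and 8.11, 7.77 and 6.97 in controls, so that the groups overlapped (0.17, 95% interval -0.69 to 1.04). On a second one it had 8.16, 7.94 and 7.64 in mutants and 7.54, 7.15 and 6.90 in controls, with each mutant above each control (0.72, standard error 0.25, adjusted p = 0.13 from limma). The third differed by 0.26 with overlapping groups, and on all 3 probe sets the lowest of the controls was control 3, the youngest mouse.

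Cdkn1a encodes p21, an inhibitor of cyclin-dependent kinases and a target of p53. It had 7.23, 7.32 and 7.49 in mutants and 7.21, 7.91 and 6.87 in controls on its brightest probe set, with all mutants inside the range of the controls (0.02, 95% interval -0.64 to 0.68). Its other probe set differed by 0.26 (adjusted p = 0.52 from limma). Ccne1, cyclin E1, which with its kinase starts replication, had 7.41, 7.94 and 7.52 in mutants and 6.90, 7.28 and 7.67 in controls (0.34, 95% interval -0.27 to 0.95). Its second probe set differed by 0.25, and on both probe sets mutant 2 and control 3 were the highest of their groups. Ccne2, cyclin E2, was lower by 0.22 with an interval of -0.98 to 0.54.

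**Figure D2:**
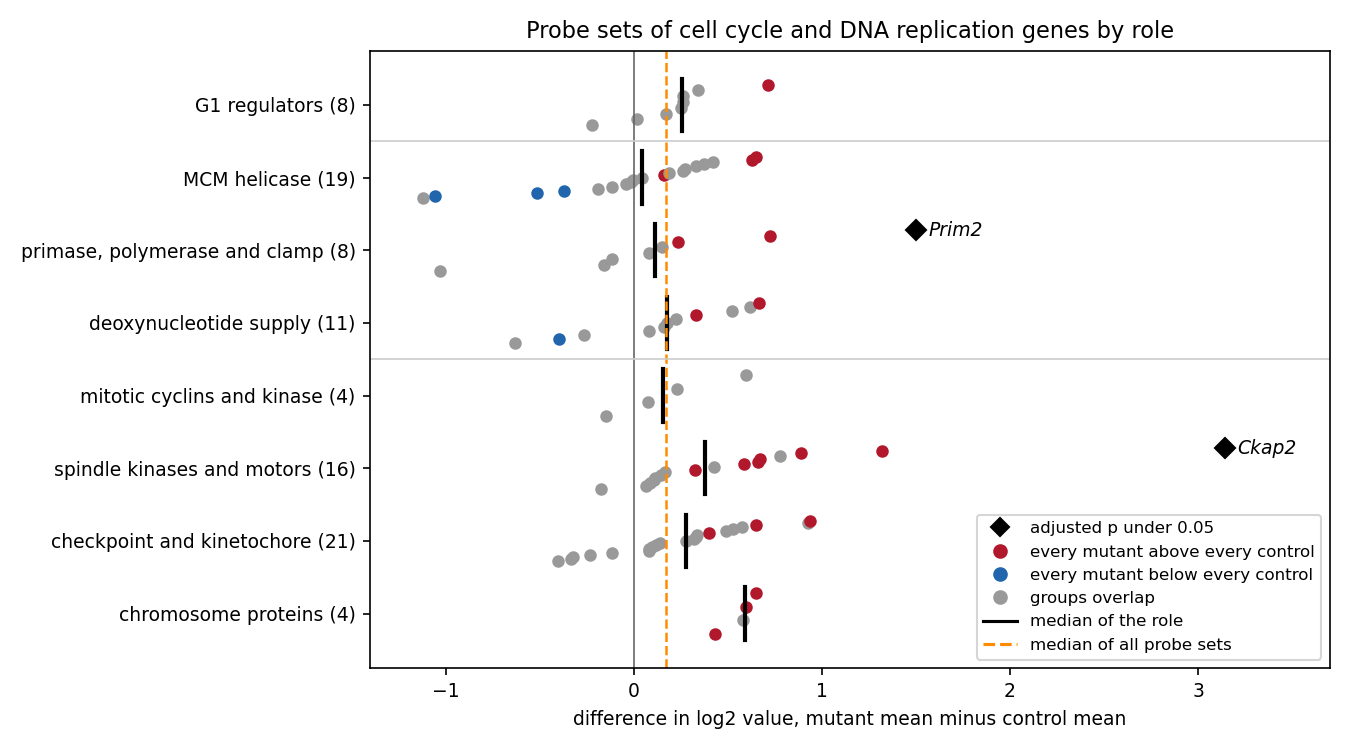
Difference in log2 value, mutant mean minus control mean (horizontal axis), of each of the 91 probe sets, grouped by role with the number of probe sets in brackets. The black line of each role is its median and the dashed line the median of all probe sets, 0.17; Ckap2 and Prim2 are the probe sets past the adjusted p, and blue points, where every mutant lay below every control, occur among replication genes in the deposited values.

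Replication genes were spread on both sides of 0. Of their 38 probe sets, 1 (2.63%) rose and 0 fell at an adjusted p under 0.05, beside 1.25% and 0.746% of all. At an unadjusted p under 0.05, 5 were higher (13.2%) and 4 lower (10.5%), beside 15.7% and 9.54% of all. The groups separated upward on 8 (21.1%) and downward on 4 (10.5%). These last shares lie close to the 21.2% and 10.7% of all probe sets. The median difference of 0.15 was -0.0082 with each array centred on its median and -0.027 with quantile normalization, so the group had no settled direction.

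The MCM proteins form the ring-shaped helicase that opens DNA at origins, and each of the 6 genes supplies 1 subunit of the ring. Their 19 probe sets had a median difference of 0.04, with 10 above 0 and 9 below. Mcm6 had the largest difference of the 6 on its brightest probe set, with 7.01, 6.68 and 7.05 in mutants and 6.23, 6.35 and 6.27 in controls (0.63, standard error 0.19, adjusted p = 0.10 from limma). Every mutant was above every control there. A second probe set of Mcm6 had 5.20, 4.36 and 4.95 in mutants and 5.48, 6.24 and 5.97 in controls, with every mutant below every control (-1.06, standard error 0.30, adjusted p = 0.086), and the third was also wholly below (-0.37). The 3 readings of the gene therefore opposed each other, and the mean of the 3 differed by -0.27. By their names, the probe sets that were lower are of a class that can read several transcripts, unlike the one that was higher. They were also dimmer, with means of 5.37 and 4.11 over the 6 livers beside 6.60.

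Mcm7 separated downward on its brightest probe set, with 7.54, 7.30 and 7.50 in mutants and 8.09, 7.95 and 7.84 in controls (-0.51, standard error 0.19, adjusted p = 0.15 from limma). It separated upward on another, which had 6.91, 7.07 and 6.85 in mutants and 6.78, 6.77 and 6.81 in controls (0.16, standard error 0.18). The other probe sets of Mcm7 differed by -0.12 and 0.19. Mcm3 was higher on all 5 of its probe sets, by 0.04 to 0.65, and separated on 1 of them, where mutants had 6.39, 6.68 and 6.31 and controls 5.85, 5.64 and 5.94 (adjusted p = 0.10 from limma). Mcm2, Mcm4 and Mcm5 overlapped on all of their probe sets. Among these the widest difference was the -1.12 of a dim probe set of Mcm4 (95% interval -2.16 to -0.08), while the brightest probe set of that gene differed by -0.02 (95% interval -0.50 to 0.47).

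Primase lays down the RNA primer that DNA polymerase alpha extends. Prim2 on its brightest probe set had 6.41, 6.91 and 7.41 in mutants and 5.28, 5.42 and 5.53 in controls. Brightness was ranked on the mean of the 6 livers, and by controls alone the second probe set of Prim2 would come first, as would that of Kif11 among the mitosis genes. The gap between the lowest mutant and the highest control was wider than the span of the controls, and the mutant mean was 283% of the control mean as a geometric mean (adjusted p = 0.0468 from limma). A second probe set had 6.35, 6.14 and 6.28 in mutants and 5.50, 5.47 and 5.62 in controls, again with no overlap (0.73, standard error 0.18, adjusted p = 0.071). The third had 4.99, 3.86 and 5.40 in mutants and 4.91, 5.32 and 4.49 in controls and did not separate the groups (-0.16, 95% interval -1.11 to 0.80). With the mean of the 3 probe sets Prim2 differed by 0.69 and was not called (adjusted p = 0.093). The call on the brightest probe set was also lost after quantile normalization (1.39, adjusted p = 0.058), after median centring (1.34, adjusted p = 0.060) and without mutant 2, mutant 3 or any 1 control (1.25 to 1.56, adjusted p 0.094 to 0.19).

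The partner subunit Prim1, which holds the catalytic site, differed by 0.15 and 0.24, and separated on the second of these probe sets. Pola1, the catalytic subunit of polymerase alpha, differed by 0.08 and -0.11 with overlap on both. Pcna encodes the clamp that holds polymerases on DNA and is also used in repair. It had 7.42, 6.07 and 6.37 in mutants and 7.41, 7.64 and 7.90 in controls. Mutants 2 and 3 were below all controls, whereas mutant 1 was level with control 1 (-1.03, 95% interval -1.86 to -0.20, adjusted p = 0.13 from limma). Without mutant 1 the difference was -1.43 and passed the test (adjusted p = 0.022 from limma). In that fit 1289 of all probe sets were called higher and 2551 lower, beside 561 and 336 with every mouse. Mutant 1 was the mutant that was not low, so leaving it out gives no support for a fall of Pcna.

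Deoxynucleotides are supplied by ribonucleotide reductase (Rrm1 and Rrm2), thymidylate synthase (Tyms) and thymidine kinase (Tk1). Tk1, whose transcript in dividing cells is tied to S phase, had 6.88, 6.55 and 6.81 in mutants and 7.15, 7.15 and 7.13 in controls, so that every mutant was below every control (-0.40, standard error 0.19, adjusted p = 0.23 from limma). The 3 controls lay closer to one another than the 3 mutants did. Tyms was higher on its 4 probe sets by 0.16 to 0.66 and separated upward on 2 of them. On the brightest, mutant 2 stood alone at 7.61, with 6.28 and 5.81 in the other mutants and 6.37, 6.07 and 6.58 in controls. Rrm2, the small and S phase specific subunit of the reductase, differed by -0.63, -0.26 and 0.52, all with overlap, and on the brightest probe set it had 5.62, 4.04 and 4.79 in mutants and 5.41, 5.86 and 5.08 in controls (95% interval -1.57 to 0.31). Rrm1 overlapped on its 3 probe sets (0.08, 0.62 and 0.18).

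Mitosis probe sets were mostly higher in mutants, on 38 of 45, beside 65.2% of all probe sets, but few passed the test. Of the 45, 1 (2.22%) rose and 0 fell at an adjusted p under 0.05, beside 1.25% and 0.746% of all probe sets. At an unadjusted p under 0.05, 10 were higher (22.2%) and 0 lower, beside 15.7% and 9.54% of all. The groups separated upward on 13 (28.9%) and downward on 0, beside 21.2% and 10.7% of all. With each array centred on its median, 10 (22.2%, beside 13.8% of all) separated upward and 4 (8.89%, beside 14.5% of all) downward. The median difference was 0.33 as deposited and 0.16 after either scaling. Without Ckap2 it was 0.32.

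By count, most of the mitosis separations fell among spindle kinases and motors. By share, the chromosome proteins separated more often, on 3 of 4 probe sets (75%). These probe sets read 2 genes, and 2 of the 4 (50%) separated upward after quantile normalization and after median centring. On 7 of the 16 spindle probe sets (43.8%) every mutant lay above every control, beside 21.2% of all probe sets. The count was also 7 after quantile normalization and after median centring, beside 15.7% and 13.8% of all. Each scaling left 1 spindle probe set (6.25%) separated downward, beside 12.7% and 14.5% of all. Ckap2 was read by 1 probe set, with 8.60, 8.54 and 7.71 in mutants and 5.14, 5.11 and 5.17 in controls. The controls spanned less than the mutants, and the lowest mutant stood well clear of the highest control. The mutant mean was 884% of the control mean as a geometric mean (95% interval of the difference 2.52 to 3.77, adjusted p = 0.026 from limma). No second probe set was there to read the gene, so the rise of Ckap2 rests on 1 set of oligonucleotides. Its difference stayed between 2.99 and 3.43 whichever mouse was left out, but its call was lost without mutant 2, mutant 3 or any 1 control (adjusted p 0.055 to 0.15) and stood without mutant 1 (adjusted p = 0.0094).

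Ckap2l encodes a related protein of the spindle. It had 6.61, 6.91 and 6.88 in mutants and 5.93, 6.28 and 6.20 in controls, with no overlap (0.66, standard error 0.20, adjusted p = 0.10 from limma), and 0.43 with overlap on a second probe set. Kif11 encodes the motor that pushes the spindle poles apart. It had 5.80, 6.44 and 6.67 in mutants and 5.30, 4.99 and 4.65 in controls on its brightest probe set (1.32, standard error 0.29, adjusted p = 0.058) and 5.57, 5.74 and 5.43 in mutants and 4.87, 4.76 and 5.34 in controls on the next (0.59, adjusted p = 0.16). Both separated the groups, while the third, the dimmest, did not (0.06, 95% interval -0.73 to 0.86).

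Tpx2, which activates Aurora A at the spindle, separated on 1 of its 4 probe sets, with 6.46, 6.70 and 6.78 in mutants and 5.66, 5.89 and 5.71 in controls (0.89, standard error 0.19, adjusted p = 0.058 from limma). The other 3 differed by 0.11 to 0.14 and overlapped. By its name, this probe set is of the class of probe sets that can read several transcripts. Nusap1, a microtubule-bundling protein, had 6.18, 6.22 and 6.55 in mutants and 5.79, 5.80 and 5.34 in controls (0.67, adjusted p = 0.12) and 0.09 on its other probe set. Plk1, the polo-like kinase of mitotic entry, had 6.07, 6.29 and 6.02 in mutants and 5.73, 5.79 and 5.88 in controls, with no overlap (0.33, adjusted p = 0.32). Kif20a, a motor of cytokinesis, differed by 0.78 with overlap (95% interval -0.02 to 1.57), and the kinase gene Aurka by -0.17 and 0.17.

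**Figure D3:**
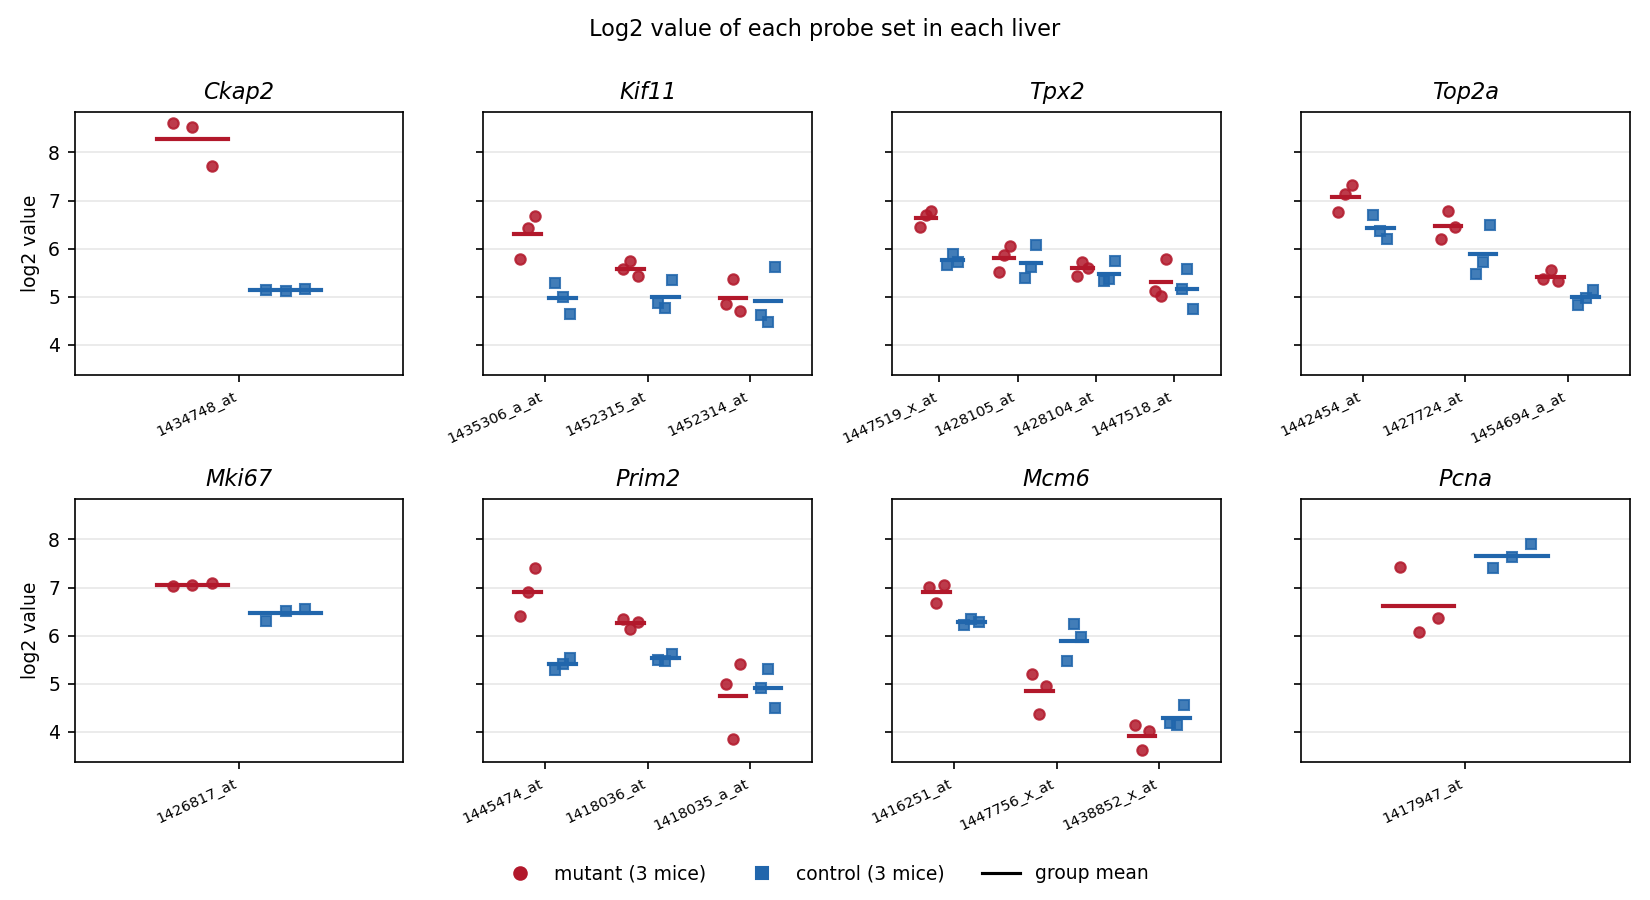
Log2 value (vertical axis) of each probe set (horizontal axis, brightest first) of 8 genes in 3 mutants (red, mice 1 to 3 from left to right) and 3 controls (blue, likewise), with a line at each group mean. Ckap2 stands at 7.71 to 8.60 in mutants and 5.11 to 5.17 in controls, the probe sets of Mcm6 separate in opposite directions, and Pcna is lower in mutants 2 and 3 only.

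The chromosome proteins Mki67 and Top2a are the usual readings of cycling cells. Mki67 coats mitotic chromosomes and had 7.04, 7.05 and 7.09 in mutants and 6.31, 6.52 and 6.55 in controls. The 3 mutants lay within a narrow band above all controls, and the mutant mean was 151% of the control mean as a geometric mean (0.60, 95% interval 0.18 to 1.02, adjusted p = 0.10 from limma). Top2a encodes topoisomerase II alpha, which untangles chromosomes. On its brightest probe set it had 6.76, 7.13 and 7.33 in mutants and 6.69, 6.38 and 6.20 in controls, so that mutant 1 lay just above control 1 (0.65, standard error 0.24, adjusted p = 0.14). A second probe set differed by 0.58 with overlap, since control 3 stood at 6.48, and the third by 0.43 without overlap. All 4 probe sets of these genes were higher, by 0.43 to 0.65, and none passed the adjusted p. At an unadjusted p under 0.05, 2 were higher (50%, beside 15.7% of all probe sets).

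The cyclins and the kinase of mitotic entry were read by 4 probe sets, on none of which the groups separated. Cdk1, the kinase that drives mitosis, had 5.82, 5.62 and 5.82 in mutants and 5.69, 5.96 and 6.06 in controls (-0.15, 95% interval -0.61 to 0.31, adjusted p = 0.68 from limma). Ccna2, cyclin A2, had 5.92, 5.59 and 5.69 in mutants and 5.66, 5.37 and 5.48 in controls (0.23, 95% interval -0.23 to 0.69). On its second probe set, where it differed by 0.60, mutant 2 and control 3 were the highest of their groups. Ccnb2, cyclin B2, differed by 0.08 with an interval of -0.37 to 0.53. The interval of Mki67, 0.18 to 1.02, overlapped those of Ccna2 and Cdk1, and the genes were not tested against each other.

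Checkpoint and kinetochore genes make sure that chromosomes are attached before they part. On 3 of their 21 probe sets (14.3%) the groups separated upward and on 0 downward, beside 21.2% and 10.7% of all probe sets. With each array centred on its median, 1 (4.76%) separated upward and 2 (9.52%) downward, beside 13.8% and 14.5% of all. None passed the adjusted p from limma. At an unadjusted p under 0.05, 2 were higher (9.52%, beside 15.7% of all) and 0 lower. Bub1b, the checkpoint kinase BubR1, had the largest difference of this role on the brightest probe sets, with 6.63, 7.09 and 6.48 in mutants and 5.58, 6.27 and 6.88 in controls (0.49, 95% interval -0.31 to 1.30). The groups overlapped because control 3 stood above mutants 1 and 3. Another probe set of Bub1b had 5.72, 5.19 and 5.83 in mutants and 4.95, 4.90 and 4.94 in controls and separated (0.65, adjusted p = 0.13 from limma), and the last differed by -0.32. The checkpoint kinase gene Ttk was higher by 0.40 and 0.58, separating on the first.

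The motor gene Cenpe separated on its dimmer probe set (0.94, adjusted p = 0.19 from limma) and was 0.34 higher on the brighter one. Cdc20, the activator of the anaphase-promoting complex, differed by 0.33, 0.08 and -0.40. Bub1 differed by 0.14 and 0.12, and Birc5, which encodes survivin of the chromosomal passenger complex, by 0.10. Aurkb, the kinase of that complex, differed by -0.23 and 0.28, and Cenpf by -0.11, 0.53 and 0.08. Cenpa, the centromeric histone, showed how wide the spread within a group could be, with 6.09, 7.55 and 5.97 in mutants and 5.84, 5.42 and 7.41 in controls on its brightest probe set. Mutant 2 and control 3 were alike there and far from their own groups.

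The likeness of these mice recurred across the genes. On 36 of the 91 probe sets (39.6%) mutant 2 was the highest mutant and control 3 the highest control, beside 28.9% of all probe sets, and among mitosis probe sets the count was 21 of 45 (46.7%). In at least 1 group the mice spanned more than the difference of the group means on 70 of the 91 (76.9%), beside 78.4% of all. The median deviation of mitosis probe sets from the mean of the 6 livers was 0.12, 0.33 and 0.09 in mutants and -0.33, -0.22 and 0.07 in controls, so that control 3 was close to mutants 1 and 3. For replication it was 0.11, 0.10 and -0.12 in mutants and -0.18, -0.06 and 0.13 in controls, with the highest value in a control. For the G1 regulators it was 0.20, 0.26 and -0.01 in mutants and -0.09, -0.06 and -0.36 in controls. Control 3 was also the youngest mouse, at 140 days. With age in the model the median difference was 0.34 for mitosis and 0.13 for replication.

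**Figure D4:**
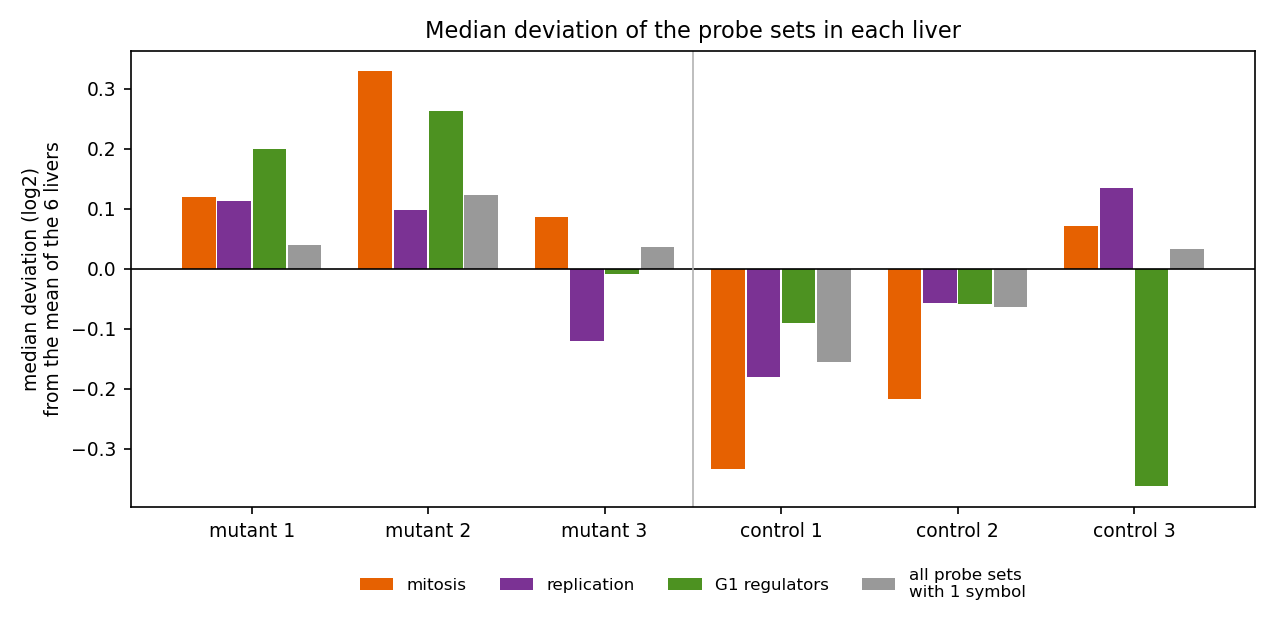
Median deviation in log2 units (vertical axis) from the mean of the 6 livers in each mouse (horizontal axis), for mitosis (orange, 45 probe sets), replication (purple, 38), G1 regulators (green, 8) and all probe sets with 1 symbol (grey). Mitosis runs from 0.09 to 0.33 in mutants and from -0.33 to 0.07 in controls, and replication overlaps between the groups.

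Probe sets of the same gene disagreed often. Of 30 genes with several probe sets, 13 had probe sets of both signs. By name, 28 of the 91 probe sets are of classes that can read several transcripts. Among these are the brightest probe sets of Kif11, Mcm7, Ccne1 and Rrm2. In 3 genes, Ckap2, Mki67 and Plk1, each read by 1 probe set, every probe set separated upward, and in 5 genes (Ccne2, Cdk1, Mcm4, Pcna and Tk1) every probe set was lower in mutants. Among mitosis genes 15 of 22 were higher on every probe set, beside 4 of 14 replication genes. Of all probe sets 65.2% were higher, and a gene with fewer probe sets meets this condition more easily. Mitosis had 45 probe sets for 22 genes and replication 38 for 14, so these counts are not like for like. Most of these probe sets gave little signal: 59 of the 91, among them 35 of the 45 for mitosis, had a mean below 6.11, the median of all probe sets. No detection calls came with the values, so how far a dim probe set stood above background is unknown.

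**Figure D5:**
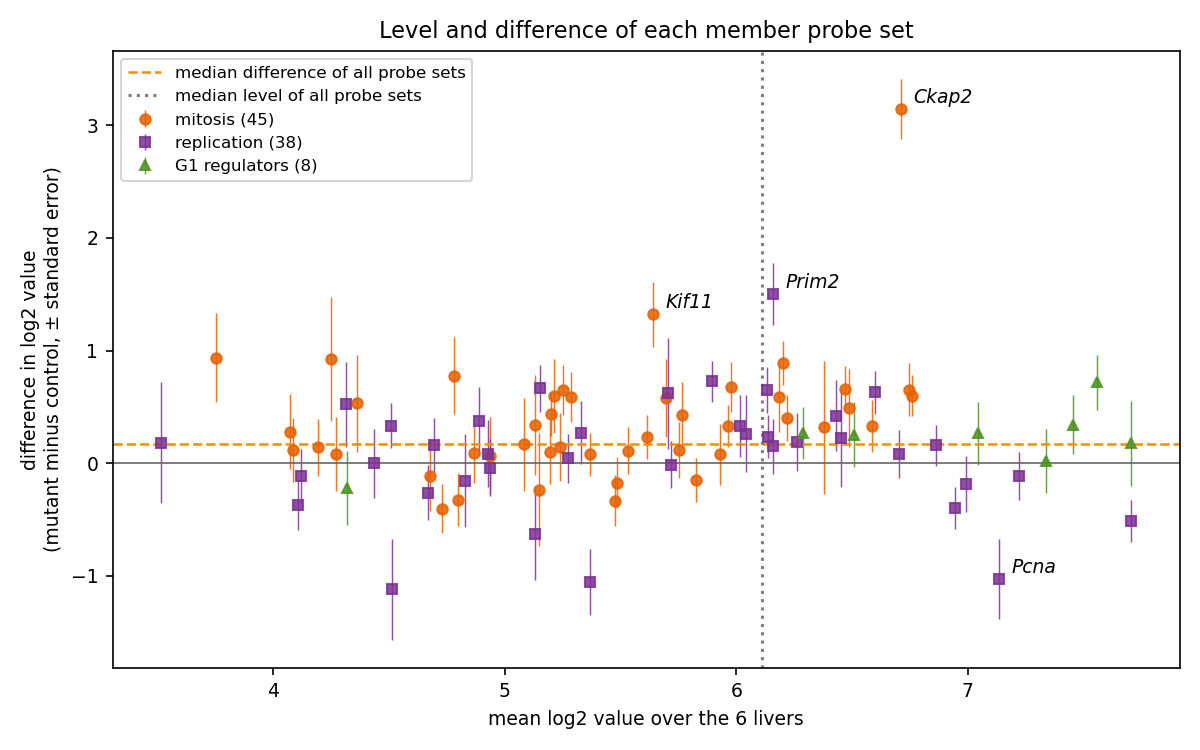
Difference in log2 value, mutant minus control (vertical axis, bars are standard errors from limma), against the mean log2 value over the 6 livers (horizontal axis) for the probe sets of mitosis (orange circles), replication (purple squares) and the G1 regulators (green triangles). The dotted line is the median level of all probe sets, 6.11, and 59 of the 91 probe sets lie to its left; Ckap2 at 3.14 stands apart.

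Other genes of the same processes were read from wider lists. In 45 genes of origin licensing, polymerases and clamp loading, 0 of 94 probe sets passed the adjusted p. At an unadjusted p under 0.05, 11 were higher (11.7%) and 10 lower (10.6%), beside 15.7% and 9.54% of all probe sets. In this list 24.5% separated upward and 10.6% downward, beside 21.2% and 10.7% of all probe sets. In 68 further mitosis genes, 2 of 151 probe sets rose (1.32%, beside 1.25% of all) and 0 fell, and 20.5% separated upward and 4.64% downward. The upward shares of this list were thus near those of all probe sets, while its downward share lay below their 10.7%. Kif22, a motor on chromosome arms, had 11.07, 11.82 and 11.78 in mutants and 9.78, 10.37 and 9.91 in controls (1.54, adjusted p = 0.046 from limma), but its other probe sets differed by 0.22 and 0.12. Nek2, a kinase of the centrosome, had 7.52, 7.41 and 7.09 in mutants and 5.69, 6.26 and 6.31 in controls (1.25, adjusted p = 0.0499), and its other probe sets were higher by 0.17 to 1.15. The median difference was 0.30 for the wider mitosis list and 0.09 for the wider replication list, which lie 0.13 above and 0.08 below that of all probe sets. With each array centred on its median, 13.2% of the wider mitosis list separated upward and 7.28% downward, beside 13.8% and 14.5% of all.

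Upstream, 1 of 48 probe sets of cell cycle transcription factors fell and 0 rose, beside 0.746% and 1.25% of all probe sets. At an unadjusted p under 0.05, 8 were higher (16.7%) and 6 lower (12.5%), beside 15.7% and 9.54% of all. The probe set that fell read Rbl2, the retinoblastoma relative p130 of resting cells, which represses cell cycle genes together with E2F4, and had 6.60, 5.82 and 6.14 in mutants and 8.18, 8.22 and 7.84 in controls (-1.89, adjusted p = 0.033 from limma). The other probe set of Rbl2 differed by -0.19. Of 46 probe sets of other G1 cyclins and kinases, 1 fell, beside 0.746% of all probe sets. It read Ccnh, the cyclin of the kinase complex that activates other cyclin-dependent kinases. The values were 6.24, 5.28 and 5.84 in mutants and 7.76, 7.64 and 7.61 in controls (-1.88, adjusted p = 0.034 from limma). The other probe sets of Ccnh differed by -0.08 each. No probe set of the array, and so none of Kif22, Nek2, Rbl2 and Ccnh, was called without mutant 2, mutant 3, control 2 or control 3. None of 8 probe sets of other kinase inhibitors, of 52 of p53 target genes or of 25 of replication stress and damage kinases passed the test. At an unadjusted p under 0.05, 0, 14 (26.9%) and 4 (16%) were higher and 1 (12.5%), 4 (7.69%) and 4 (16%) lower. The shares of all probe sets were 15.7% higher and 9.54% lower. Among the p53 targets 30.8% separated upward and 7.69% downward, beside 21.2% and 10.7% of all probe sets. Once arrays were centred the shares were 25% and 7.69%, beside 13.8% and 14.5% of all.

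Cells other than hepatocytes can cycle in liver, and in whole tissue fewer cells of a type and less RNA per cell cannot be told apart. The summed level of 10 hepatocyte markers was 16.13 to 16.49 in mutants and 16.42 to 16.50 in controls on the log2 scale, with no value at 0. That of 12 Kupffer cell and macrophage markers was 11.47 to 12.17 in mutants and 10.47 to 11.41 in controls, and that of 12 sinusoidal endothelial markers 12.19 to 12.86 in mutants and 11.44 to 12.06 in controls. In the deposited values these sums were separated between the groups, as were those of 10 neutrophil and myeloid precursor markers (9.69 to 9.81 in mutants, 9.15 to 9.33 in controls), of 10 lymphocyte markers (9.48 to 9.69 in mutants, 9.32 to 9.42 in controls) and of 9 cholangiocyte markers (9.99 to 10.22 in mutants, 9.53 to 9.80 in controls). The sums of 12 stellate cell and fibroblast markers (12.28 to 12.66 in mutants, 12.02 to 12.47 in controls) and of 8 erythroid markers (10.23 to 10.59 in mutants, 10.34 to 10.62 in controls) overlapped. With each array centred on its median, the macrophage sum (11.38 to 12.03 in mutants, 10.55 to 11.39 in controls), the endothelial sum (12.10 to 12.72 in mutants, 11.42 to 12.24 in controls) and the lymphocyte sum (9.34 to 9.67 in mutants, 9.31 to 9.60 in controls) overlapped as well, and mutants lay above controls in the myeloid and cholangiocyte sums alone. The hepatocyte sum (16.04 to 16.48 in mutants, 16.48 to 16.60 in controls) then lay just below that of controls. With quantile normalization the lymphocyte sum was the one of the 5 that overlapped. Each sum adds unlogged values, so its brightest markers weigh most. In the macrophage sum the brightest was Csf1r, with 10.23, 11.58 and 10.61 in mutants and 9.25, 9.28 and 10.72 in controls. Its groups overlapped (adjusted p = 0.22 from limma). On their brightest probe sets 10 of the 12 macrophage markers were higher in mutants and 2 lower, Timd4 (-0.27) and Cd163 (-0.15). Beside 21.2% of all probe sets, 35.3% of 17 probe sets of the macrophage list separated upward, 33.3% of 21 of the endothelial list, 40% of 10 of the myeloid list, 17.6% of 17 of the lymphocyte list and 56.2% of 16 of the cholangiocyte list. Of the 21 endothelial probe sets 2 (9.52%) rose past the adjusted p of limma, beside 1.25% of all probe sets. They read the scavenger receptor genes Stab2 (1.82) and Stab1 (1.39). Another 6 were lower in mutants without passing it, among them Fcgr2b, an antibody receptor gene, at -0.58 and -0.50. Of the 28 stellate and fibroblast probe sets 1 (3.57%) rose, that of the filament gene Vim (1.29). Of the same 28, 6 were lower without passing the test, among them Rgs5, a pericyte gene, at -1.06. The part of these cell types in the mitosis values was not tested.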

How the data were processed

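Deposited values are on the log2 scale and were used without further scaling. The authors had computed them in dChip, with mismatch oligonucleotides left out. A C. elegans array is named in the methods, whereas the probe sets carry mouse names. The version of dChip and its baseline array were not given in the sources used here.

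Probe sets were assigned to genes through GEO's platform annotation; 932 with several symbols and 9160 with none belong to no member, and 64 spiked-in or control probe sets were left out of the fit. The remaining 45037 were compared between 3 mutants and 3 controls with the lmFit and eBayes functions of limma (3.58.1; R 4.3.3). The procedure was first tested on simulated data, and p was adjusted by the Benjamini-Hochberg method over all of them. A probe set was called at an adjusted p under 0.05, and "rose" and "fell" refer to such calls. The members and the wider lists were chosen with earlier results of these data known, so their counts are descriptions. Values of every mouse are given for called members, for Mki67, Top2a, Pcna, Ccna2, Ccnd1, Cdkn1a and Cdk1, and for the member of largest difference in each role. Other members shown mouse by mouse, such as Kif11, Tpx2, Mcm7, Tk1 and Cenpa, were chosen after their values were seen. Up to 4 called genes of each other list were named.

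The values were also recomputed after median centring and after quantile normalization, with dim probe sets removed, with 1 value per gene (the brightest probe set or the mean), without probe sets ending in s, x or a, with the trend and robust settings of eBayes, with age or the replicate number in the model, and without each mouse. A fit without both mutant 2 and control 3 was chosen after the data were seen. Promoter sequences are from RefSeq (GRCm38.p6). Figures were drawn with matplotlib 3.10.9. Ccnb1 and, of the wider lists, Chaf1a, Trp53 and Bax were among the genes not analysed here.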

Additional observations from a re-analysis of the deposited data

Results flagged for a closer look

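Control transcripts of bacterial origin (BioB, BioC and BioD) are added to each sample to follow hybridization, and they lie outside the comparison of genes. Their signal differed between the groups: the median of 7 probe sets was 10.52, 11.12 and 10.93 on mutant arrays and 9.42, 9.23 and 8.88 on control arrays, a difference of 1.68. The probe sets of CreX, another spiked-in control outside this median, differed less, by 0.54 and 0.64. The part of these differences in the values of the cell cycle genes was not tested.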

How the results depend on the processing

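The count of 2 cell cycle probe sets called higher was 1 (Ckap2) after quantile normalization, after median centring, with the mean per gene and without probe sets ending in s, x or a. It was 3 (Ckap2, Prim2 and Tpx2) with bright probe sets alone or with trend and robust options, and 4 (with Kif11) with the brightest probe set per gene or with age as a covariate. Brightness was the mean of the 6 livers, so that probe sets high in mutants passed more easily: of 32 cell cycle probe sets above the limit of 6.11, 8 had a control mean below it, among them those of Ckap2 (5.14), Prim2 (5.41) and Tpx2 (5.76), and 0 had a mutant mean below it. The counts and medians of bright or brightest probe sets are therefore no support for the calls. With 1 mouse left out it lay between 0 and 4, the 4 being without mutant 1, when Pcna was also called lower, so that 0 to 1 were called lower.

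All probe sets called higher numbered 561 and those called lower 336. The counts were 461 and 228 after quantile normalization, 150 and 150 after median centring, 1587 and 1463 with bright probe sets alone, 895 and 748 with the brightest probe set per gene, 309 and 193 with the mean per gene, 263 and 119 without probe sets ending in s, x or a, 864 and 549 with trend and robust options, and 1392 and 1123 with age as a covariate. With 1 mouse left out, 0 to 1289 were higher and 0 to 2551 lower in limma; 0 were called without mutant 2, mutant 3, control 2 or control 3, when 8983, 8663, 7526 and 11749 probe sets had an unadjusted p under 0.05. Without mutant 2 and control 3 together no probe set was called, 0 higher and 0 lower, with 10823 at an unadjusted p under 0.05, and the difference of Ckap2 was then 3.03.

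The labels number the mice of both groups, but samples of the same number did not deviate together: the correlations of their deviations from the group means were 0.06 for number 1, -0.50 for number 2 and -0.56 for number 3. No mouse correlated best with the mouse of its own number. The correlation was 0.62 for mutant 2 with control 3 and 0.45 for mutant 3 with control 1, the pair described as concurrent, and the labels name no concurrent mouse for the others. With the replicate block, 0 cell cycle probe sets and 0 and 0 of all probe sets were called in limma, with 7935 of all at an unadjusted p under 0.05, and the smallest adjusted p among the cell cycle probe sets was 0.18.

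The median difference of replication was -0.027 after quantile normalization and -0.0082 after median centring, and that of mitosis was 0.59 with bright probe sets alone, 4 of whose 10 had a control mean below the limit. Of single genes on their brightest probe set, Mcm6 turned to -0.27 with the mean per gene. Ccnd1 lay between -0.15 and 0.42 and Cdkn1a between -0.21 and 0.31 with 1 mouse left out, and Cdkn1a was -0.14 after median centring, -0.026 with age as a covariate and -0.20 without mutant 2 and control 3. Under every alternative that kept their probe sets, Mki67, Top2a, Bub1b, Ckap2, Prim2, Ccne1 and Ccna2 stayed higher in mutants, and Pcna, Rrm2 and Cdk1 stayed lower. Beyond the fewer mice or probe sets in a fit, the cause of these changes was not tested. Signal over background is unknown for these values, which limits what dim probe sets can show.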
